A study of Mus musculus with 19 samples.

Results

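The Fc receptor group comprised 7 genes, *Fcgr1*, *Fcgr2b*, *Fcgr3*, *Fcgr4*, *Fcer1g*, *Fcgrt* and *Syk*, chosen by name from the 27299 genes with a read in at least 1 sample, and all 7 had values in every sample. Bulk RNA-seq had been made from flow cytometry-sorted microglia, the resident macrophages of the retina, in 6 samples from mice 3 days after argon laser burns (CNV d3) and 6 samples from mice without laser (control). In this model of choroidal neovascularization (CNV) the laser breaks the retinal pigment epithelium, and 6 burns had been set per eye. Mice of both groups were 8 weeks old. The labels give the strain as C57BL/6J and the sorted cells as CD45+, whereas the methods name Cx3cr1 GFP/+ mice, in which GFP takes the place of an allele of the fractalkine receptor gene, and cells low for CD45. In both accounts the cells were also CD11b+, CX3CR1+, Ly6C- and Ly6G-, a gate that removes monocytes high for Ly6C as well as neutrophils. The 6 control samples and replicate 4 of CNV d3 each had 2 entries in the labels and a single column of values. No source used here states whether the samples of a group came from separate animals, so the p-values measure the spread between these samples.

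Fc receptors bind the constant part of antibodies and couple it to a cell response. *Fcgr1*, *Fcgr3* and *Fcgr4* encode the activating IgG receptors of the mouse, which need the common gamma chain, the product of *Fcer1g*, for surface expression and signalling. The gamma chain carries an activation motif that Src family kinases phosphorylate, and the kinase encoded by *Syk* then binds to it and starts phagocytosis, degranulation and cytokine release. *Fcgr2b* encodes the inhibitory IgG receptor, whose inhibition motif recruits the lipid phosphatase SHIP1 to the activated complex. *Fcgrt* encodes the heavy chain of the neonatal receptor FcRn, which works inside the cell, where it saves IgG and albumin from lysosomal breakdown. In the central nervous system, microglia are the main cells that bear IgG receptors.

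Values are normalized counts, that is reads per gene divided by the size factor of the sample. The 7 genes had between 1377 reads (*Syk*) and 53207 reads (*Fcgr3*) in a sample. Reads on genes numbered between 10963178 and 22335233 per control sample and between 23532260 and 29523018 per CNV d3 sample. Of 10 microglia markers 8 decreased and none increased in CNV d3, and their summed level was between 1351200 and 1520600 in control and between 730570 and 1113800 in CNV d3. Of 10 monocyte markers 6 increased and none decreased, with a summed level of 572 to 1475 in control and 1755 to 6425 in CNV d3, and *Ly6c2*, *Chil3* and *F10* were at 0 in all control samples. In bulk values, fewer cells of a type and less RNA per cell cannot be told apart. Control replicate 3 had the highest monocyte marker sum of the control samples and was also the highest control sample for 5 of the 7 Fc receptor genes, and results that rest on it are given without it as well.

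The genes of the group lie at 4 places of the mouse genome (GRCm38, Gencode M21). *Fcgr2b* (chr1:170958617-170976547, minus strand), *Fcgr4* (chr1:171018920-171029761, plus strand), *Fcgr3* (chr1:171051174-171064935, minus strand) and *Fcer1g* (chr1:171229572-171234365, minus strand) are neighbours on chromosome 1. *Fcgr1* lies at chr3:96282909-96293969 on the minus strand, *Fcgrt* at chr7:45092990-45103851 on the minus strand and *Syk* at chr13:52583173-52648792 on the plus strand. *Fcgr3* and *Fcgr2b* are near copies of each other in the exons that encode their immunoglobulin-like domains. The first coding transcripts of both genes in Gencode shared 3 identical stretches of 50 bases or more, all in coding sequence, with 313 bases in all. These stretches are shown because a read of 50 bases that lies inside one maps equally well to both genes and was left out of the deposited values. They are given on the strand of the transcript, 5′ to 3′. The first runs from exon 3 into exon 4 of both transcripts and ends at chr1:171054167 in *Fcgr3* and at chr1:170966674 in *Fcgr2b*. The others lie in exon 4 of both, at chr1:171054053-171054165 and chr1:171053980-171054050 in *Fcgr3*.
Stretch of 129 bases: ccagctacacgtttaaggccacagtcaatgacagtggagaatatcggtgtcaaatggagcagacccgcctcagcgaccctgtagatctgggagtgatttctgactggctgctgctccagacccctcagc
Stretch of 113 bases: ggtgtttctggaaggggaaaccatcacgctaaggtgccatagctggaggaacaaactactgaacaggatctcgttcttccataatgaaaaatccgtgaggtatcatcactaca
Stretch of 71 bases: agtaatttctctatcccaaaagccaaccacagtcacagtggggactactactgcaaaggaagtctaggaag
Over all transcripts of each gene, 166 of 1733 windows of 50 bases in *Fcgr3* (9.58%) recurred in another gene, each of them in *Fcgr2b*, and 395 of 5685 windows in *Fcgr2b* (6.95%). *Fcgr1*, *Fcgr4*, *Fcer1g*, *Fcgrt* and *Syk* shared no window with the transcripts of another gene, and the genome outside transcripts was not searched. The exons of *Fcgr2b* also overlap the antisense gene *Gm38204* over 155 bases, and that gene had a mean of 0 normalized counts in control and 0.139 in CNV d3.

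The sequences before the starts of the 3 activating receptor genes are shown because these genes share the gamma chain and, of the 3, *Fcgr4* passed the test of CNV d3 against control. They come from RefSeq (GRCm38.p6), reach up to 250 bases before the start, exclude bases that lie in exons of the gene itself and are given 5′ to 3′ on the strand of the gene. Capitals mark matches on either strand to 3 motifs, which are the core GAGGAA of sites of the myeloid factor PU.1, the interferon-gamma activated site TTCNNNGAA (GAS), and the core of interferon-stimulated response elements (ISRE), GAAA followed by any 2 bases and a second GAAA.
*Fcgr4*, chr1:171018676-171018919, plus strand: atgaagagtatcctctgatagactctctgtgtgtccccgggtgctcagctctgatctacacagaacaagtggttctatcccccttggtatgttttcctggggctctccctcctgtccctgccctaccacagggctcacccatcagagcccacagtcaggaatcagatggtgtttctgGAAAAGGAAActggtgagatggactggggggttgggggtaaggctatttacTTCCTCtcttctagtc
*Fcgr1*, chr3:96293970-96294219, minus strand: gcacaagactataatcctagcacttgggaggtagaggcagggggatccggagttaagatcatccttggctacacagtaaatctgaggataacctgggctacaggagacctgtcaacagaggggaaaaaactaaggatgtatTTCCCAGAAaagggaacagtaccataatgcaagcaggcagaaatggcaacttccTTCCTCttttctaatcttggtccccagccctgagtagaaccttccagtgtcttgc
*Fcgr3*, chr1:171059404-171059626, minus strand: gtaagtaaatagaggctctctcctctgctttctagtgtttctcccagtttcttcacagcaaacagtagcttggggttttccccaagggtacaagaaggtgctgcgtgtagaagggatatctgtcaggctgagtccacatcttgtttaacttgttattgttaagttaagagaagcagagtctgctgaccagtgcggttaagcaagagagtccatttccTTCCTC
In *Fcgr4*, the ISRE core stood 73 to 64 bases and the PU.1 core 22 to 17 bases before the start. In *Fcgr1*, the GAS stood 109 to 101 bases and the PU.1 core 55 to 50 bases before the start. The *Fcgr3* window, which begins inside the longer gene model of Gencode, held the PU.1 core 6 to 1 bases before the start and neither of the other motifs. The motifs were searched for in all 250 bases before each start, exon bases included. The windows of *Fcgr2b*, of which 187 bases lie in exons of the gene, *Fcer1g* and *Fcgrt* held none of the 3 motifs. *Syk* had the PU.1 core 9 to 4 bases before its second start, in exon bases, and none before its first start, where the whole window is exon. Over all 32851 promoters of 250 bases, 23.3% held the PU.1 core, 7.02% the GAS and 2.98% the ISRE core, so a match to the PU.1 core is common.

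The comparison of CNV d3 with control asked how microglia of the lasered retina differ from microglia of the healthy retina. Per the methods, the periphery of the retina was cut away and the central part, which held the lesions, was used. The CNV d3 samples were therefore not limited to microglia at the lesions. Of the 7 Fc receptor genes, *Fcgr4*, *Fcgr2b* and *Syk* increased in CNV d3 and none decreased, at a Benjamini-Hochberg adjusted p under 0.05 from limma over all genes. Over all 27299 genes 8.29% increased and 4.57% decreased, and among the 3877 genes with a mean of at least 1000 normalized counts, as all 7 had, 22.0% increased and 15.1% decreased. None of the 7 was a differentially expressed gene (DEG) at an absolute log2FC above 1.5, a limit that 3.91% of all genes passed upwards and 1.07% downwards. The median log2FC was 0.09 over the 7 genes, 0.15 over all genes and 0.06 over those with a mean of at least 1000. For the same 3 genes, all 6 CNV d3 values lay above all 6 control values, as was so for 4.64% of all genes and for 13.9% of those with a mean of at least 1000. No gene of the group had all CNV d3 values below all control values, against 2.83% of all genes and 9.47% of those with a mean of at least 1000. On the recovered reads, edgeR called *Fcgr4* and *Fcgr2b* increased and none decreased (7.15% and 4.33% of all genes), and DESeq2 called the same genes and *Syk* increased and none decreased (14.5% and 12.6% of the 17186 genes it tested).

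**Figure D1:**
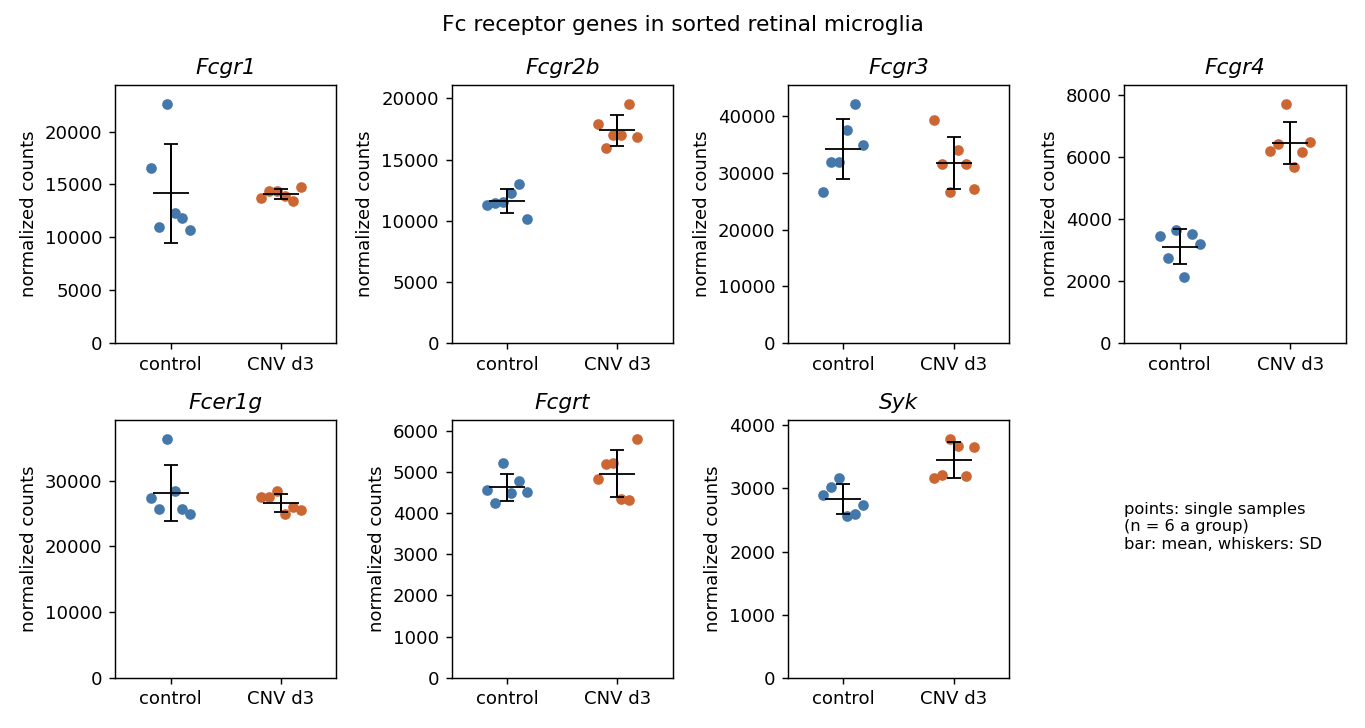
Normalized counts of the 7 Fc receptor genes in each sample, with points for the 6 control samples (blue) and the 6 CNV d3 samples (orange), a bar at the mean and whiskers of 1 SD; all axes start at 0. The groups lie apart for Fcgr2b, Fcgr4 and Syk and overlap for Fcgr1, Fcgr3, Fcer1g and Fcgrt, and the Fcgr1 points spread from 10694 to 22613 in control and from 13428 to 14785 in CNV d3.

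*Fcgr4*, the activating receptor for IgG2a and IgG2b, had the largest change of the group. In control its lowest, median and highest values were 2144, 3322 and 3634 normalized counts, and in CNV d3 they were 5690, 6304 and 7720. Every CNV d3 sample lay above every control sample, and the lowest CNV d3 value was replicate 4. The mean rose from 3114.5 ± 569 (SD, n = 6) to 6451 ± 684 (SD, n = 6), a ratio of 2.07, with a log2FC of 1.07 ± 0.13 (SE) and an adjusted p of 8.493e-05 (limma). An exact permutation test over all ways to label 6 of 12 samples gave a two-sided p of 0.00216, the smallest that this design allows. On the recovered reads the log2FC was 1.07 in edgeR (adjusted p = 1.702e-05) and 1.05 in DESeq2 (adjusted p = 2.494e-13).

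The monocyte marker sum was also higher in all CNV d3 samples, and its part in the *Fcgr4* result was not tested. The highest sum in CNV d3 and the highest *Fcgr4* value were both in replicate 3, with 6425 and 7720 normalized counts. The lowest sum, 1755, was in CNV d3 replicate 1, near the 1475 of control replicate 3. That CNV d3 sample had 6187 normalized counts of *Fcgr4* and control replicate 3 had 3634. Dendritic cells and mast cells also bear Fc receptors. Of 6 dendritic cell markers *Flt3*, *Xcr1* and *Cd209a* increased and none decreased, with summed levels of 23.8 to 514 normalized counts in control and 245 to 1262 in CNV d3, highest in replicate 3, and *Cd209a* was at 0 in all control samples. In CNV d3 replicate 1 the dendritic cell sum of 245 lay inside the control range. Of 3 mast cell markers *Kit* and *Hdc* increased, both at 0 in all control samples, with summed levels of 0 to 2.02 in control and 0 to 194 in CNV d3, and the sum was 0 in CNV d3 replicate 1. Of 6 border macrophage markers *Cbr2* increased and none decreased. Their summed levels were 141 to 1726 normalized counts in control and 242 to 578 in CNV d3. The part of these cell types in the results for *Fcgr4*, *Fcgr2b* and *Syk* was not tested. Of 6 neutrophil markers, genes of another cell type that bears *Fcgr3* and *Fcgr4*, *Mmp9* increased, with means of 0 and 14.7 normalized counts, and none decreased. Most of their sum, 9051 to 11561 in control and 4979 to 10768 in CNV d3, came from *Csf3r* with means of 10220 and 8601, while *S100a9* had means of 0 and 0.134.

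*Fcgr1* encodes the high-affinity receptor for IgG2a. Its lowest, median and highest values were 10694, 12043 and 22613 normalized counts in control and 13428, 14123 and 14785 in CNV d3. The groups overlapped, with control replicates 1 and 3 above and the other 4 control samples below every CNV d3 sample. The means were 14147 ± 4652 and 14088 ± 509 (SD, n = 6 each), and the log2FC of 0.05 had a 95% interval from -0.28 to 0.37 and an adjusted p of 0.8407 (limma). The sign of this small difference depended on the scale, since the mean of normalized counts was lower and the mean of log2 values higher in CNV d3, and edgeR and DESeq2 gave a log2FC of 0.0099 and -0.0061. Without control replicate 3 the log2FC of *Fcgr1* was 0.20 (adjusted p = 0.2556, limma). The spread of *Fcgr1* was smaller between the CNV d3 samples than between the control samples. On the log2 scale its SD was 0.42 in control, larger than that of 84.9% of the 3877 genes with a mean of at least 1000, and 0.05 in CNV d3, where 0.645% of these genes had a smaller one. The medians of these SDs over the 3877 genes were 0.26 and 0.18. Without control replicate 3 the SD of *Fcgr1* in control was 0.25, larger than that of 56.8% of these genes, so the wide spread in control rests on that sample. This contrast of spreads was chosen after the values were seen and was not tested.

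*Fcgr3*, the low-affinity activating receptor, had the highest level per kilobase of the IgG receptor genes in both groups. Its lowest, median and highest values were 26718, 33453 and 42166 normalized counts in control and 26723, 31592 and 39308 in CNV d3. The 2 ranges covered almost the same span, and control replicate 5 was the highest sample. The means were 34201 ± 5320 and 31740 ± 4641 (SD, n = 6 each). The log2FC of *Fcgr3* was -0.11 with a 95% interval from -0.35 to 0.13 and an adjusted p of 0.5816 (limma), so that a rise as large as that of *Fcgr2b* or *Fcgr4* lay outside the interval.

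*Fcgr2b*, the inhibitory receptor, increased in CNV d3 with little spread between samples. Its lowest, median and highest values were 10166, 11491 and 13026 normalized counts in control and 15931, 17036 and 19546 in CNV d3. The lowest CNV d3 sample, replicate 2, lay above the highest control sample, replicate 5. The mean rose from 11621 ± 970 to 17384 ± 1231 (SD, n = 6 each), by 49.6%, with a log2FC of 0.58 ± 0.07 (SE), an adjusted p of 0.000137 (limma) and an exact permutation p of 0.00216. In edgeR the log2FC was 0.60 (adjusted p = 0.0001797) and in DESeq2 0.58 (adjusted p = 4.669e-13). The call of *Fcgr2b* held with each sample left out in turn, with a log2FC between 0.54 and 0.62. In CNV d3 replicate 1, the sample with the lowest monocyte marker sum, *Fcgr2b* stood at 17902 normalized counts. B cells bear *Fcgr2b* as their only IgG receptor, and neither of the 2 B cell markers measured passed the test, with sums of 932 to 1852 in control and 755 to 1566 in CNV d3. The part of these cell types in the *Fcgr2b* result was not tested beyond these values.

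*Fcer1g*, the common gamma chain, did not differ detectably. Its lowest, median and highest values were 24899, 26550 and 36399 normalized counts in control and 24877, 26770 and 28409 in CNV d3. The ranges overlapped, and control replicate 3 stood above all other samples of both groups. The means were 28078 ± 4272 and 26661 ± 1389 (SD, n = 6 each), with a log2FC of -0.06, a 95% interval from -0.25 to 0.12 and an adjusted p of 0.6177 (limma). Without control replicate 3 the log2FC of *Fcer1g* was 0.01 (adjusted p = 0.8836, limma). The interval leaves out a change of the size seen for *Fcgr2b*, and the log2FC of the 3 receptors that need this chain ran from -0.11 for *Fcgr3* to 1.07 for *Fcgr4*.

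*Syk*, the kinase that binds the phosphorylated gamma chain, had a smaller log2FC than *Fcgr4* and *Fcgr2b*. Its lowest, median and highest values were 2565, 2814 and 3164 normalized counts in control and 3170, 3437 and 3788 in CNV d3. The groups did not overlap, but control replicate 3 at 3164.0 and CNV d3 replicate 1 at 3170.1 were close. The mean was 2830 ± 241 in control and 3450 ± 285 in CNV d3 (SD, n = 6 each), 21.9% more, and the log2FC of 0.29 ± 0.09 (SE) had an adjusted p of 0.04655 (limma) and an exact permutation p of 0.00216. The highest and the lowest *Syk* value of CNV d3 were in replicates 3 and 1, which also had the highest and the lowest monocyte marker sum, and the part of these cells was not tested. The call of *Syk* stood at the threshold. In edgeR its log2FC was 0.30 with an adjusted p of 0.05071, and in DESeq2 it was 0.29 with an adjusted p of 0.003216. In limma the adjusted p was 0.05998, 0.0586 and 0.05461 without control replicates 4, 5 and 6, and 0.05509, 0.0505 and 0.05598 without CNV d3 replicates 3, 4 and 6. The log2FC of *Syk* itself stayed between 0.26 and 0.32 over all alternatives.

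*Fcgrt*, the FcRn heavy chain, had lowest, median and highest values of 4238, 4536 and 5205 normalized counts in control and 4320, 5011 and 5803 in CNV d3. The groups overlapped, and CNV d3 replicate 6 was the highest sample. Its log2FC of 0.09 had a 95% interval from -0.10 to 0.28 and an adjusted p of 0.558 (limma), with means of 4629 ± 329 and 4953 ± 572 (SD, n = 6 each). *B2m*, the light chain that FcRn needs, had means of 99497 ± 14468 and 112160.0 ± 13438 normalized counts (SD, n = 6 each) and an adjusted p of 0.2785 (limma).

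**Figure D2:**
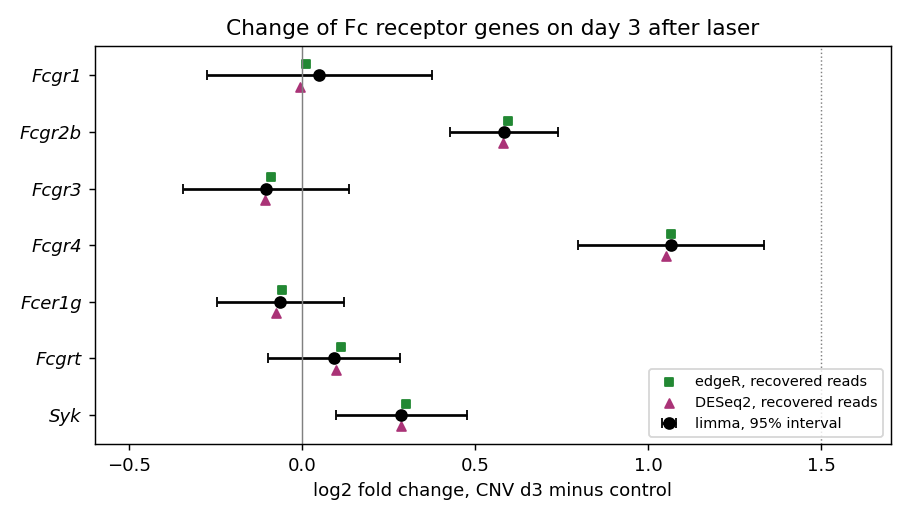
Log2 fold change of each Fc receptor gene, CNV d3 minus control, from limma with its 95% interval (black) and from edgeR (green squares) and DESeq2 (purple triangles) on the recovered reads; the dotted line marks the DEG limit of 1.5. The limma intervals of Fcgr2b, Fcgr4 and Syk lie above 0, those of the other 4 genes cross 0, and the tools differ by little.

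The balance of activating to inhibitory receptor was examined as the log2 ratio of normalized counts within each sample, which leaves out the size factor. *Fcgr3* to *Fcgr2b* fell, *Fcgr1* to *Fcgr2b* fell, and *Fcgr4* to *Fcgr2b* rose in CNV d3. The log2 ratio of *Fcgr3* to *Fcgr2b* was 1.55 ± 0.19 in control, with a range of 1.25 to 1.78, and 0.86 ± 0.21 in CNV d3, with a range of 0.65 to 1.13 (SD, n = 6 each). That of *Fcgr1* to *Fcgr2b* was 0.23 ± 0.44 in control, with a range of -0.14 to 0.97, and -0.30 ± 0.14 in CNV d3, with a range of -0.54 to -0.15. That of *Fcgr4* to *Fcgr2b* was -1.92 ± 0.33 in control, with a range of -2.52 to -1.67, and -1.43 ± 0.19 in CNV d3, with a range of -1.66 to -1.14. The groups lay apart for all 3 ratios, by little for *Fcgr1* and *Fcgr4*. The differences were -0.69, -0.53 and 0.48 on the log2 scale, each with a two-sided exact permutation p of 0.00216, the smallest possible for 6 against 6, and the same p after adjustment over the 3 ratios. For *Fcgr1* to *Fcgr2b* the difference was -0.39 without control replicate 3 (exact permutation p = 0.00216). The ratios are not scaled for gene length, so only their difference between the groups is read here and not which gene had the higher level. Neither *Fcgr3* nor *Fcgr1* itself passed the test, whereas *Fcgr2b* rose and *Fcgr4* rose by more.

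**Figure D3:**
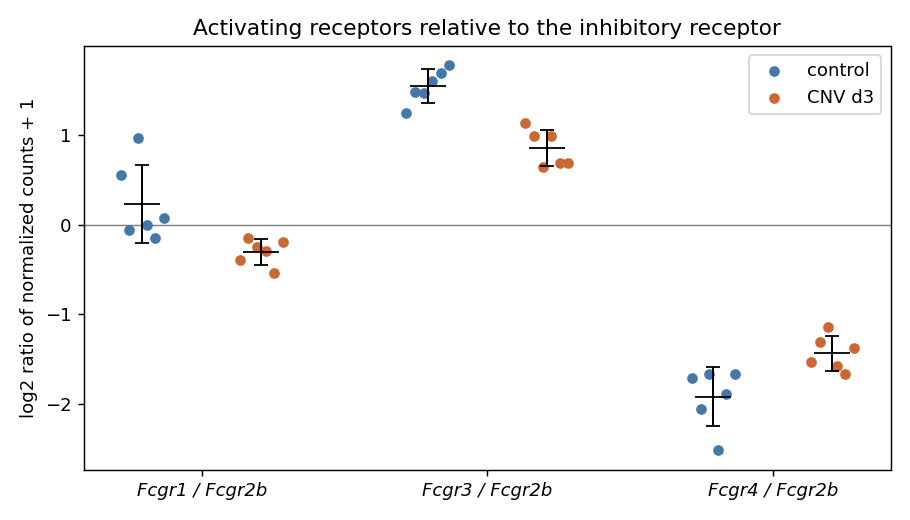
Log2 ratio of each activating receptor gene to Fcgr2b in each sample (normalized counts plus a pseudocount of 1), with a bar at the mean and whiskers of 1 SD. CNV d3 (orange) lies below control (blue) for Fcgr1 and Fcgr3 and above it for Fcgr4, with differences of -0.53, -0.69 and 0.48.

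Levels of different genes were compared as normalized counts per kilobase of exon. The length merged the exons of all annotated transcripts of a gene. It was 2589 bases for *Fcgr1*, 5790 for *Fcgr2b*, 1736 for *Fcgr3*, 1256 for *Fcgr4* and 9362 for *Syk*. Which transcripts the cells used was not measured, so the order and the shares below depend on these lengths. In control the order was *Fcer1g* with 32126 ± 4888, *Fcgr3* with 19701 ± 3065, *Fcgr1* with 5464 ± 1797, *Fcgr4* with 2480 ± 453, *Fcgrt* with 2202 ± 157, *Fcgr2b* with 2007 ± 168 and *Syk* with 302 ± 25.7 normalized counts per kilobase (SD, n = 6). *Fcgr4*, *Fcgrt* and *Fcgr2b* were neighbours whose ranges overlapped in control. In CNV d3 *Fcgr4* reached 5136 ± 545 per kilobase, beside *Fcgr1* with 5441 ± 197, and these ranges overlapped, with *Fcgr1* higher in 5 of 6 samples. *Fcgr2b* with 3002 ± 213 stood above *Fcgrt* with 2356 ± 272 in all 6 CNV d3 samples, although their ranges overlapped. *Fcer1g* with 30504 ± 1590, *Fcgr3* with 18284 ± 2673 and *Syk* with 368 ± 30.4 per kilobase kept the first, second and last place.

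Among the 4 IgG receptor genes, *Fcgr3* made up most of the per-kilobase signal in both groups at these merged exon lengths. Its share was 66.3 ± 6.70% in control and 57.1 ± 4.37% in CNV d3 (SD, n = 6 each), and the ranges of 57.4 to 71.7% and 51.2 to 63.0% overlapped. The share of *Fcgr4* was 8.40 ± 1.56% in control and 16.2 ± 2.51% in CNV d3, and its ranges of 5.65 to 10.4% and 13.7 to 20.5% did not overlap. The share of *Fcgr2b* was 6.79 ± 0.55% and 9.45 ± 0.80%, also without overlap, and that of *Fcgr1* was 18.5 ± 5.75% and 17.2 ± 1.66%. Because shares sum to a whole, a rise of one lowers the others. With lengths scaled to the windows not shared between genes, a setting chosen after the data were seen, the share of *Fcgr3* was 68.2% in control and 59.2% in CNV d3 and that of *Fcgr4* 7.82% and 15.2%.

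**Figure D4:**
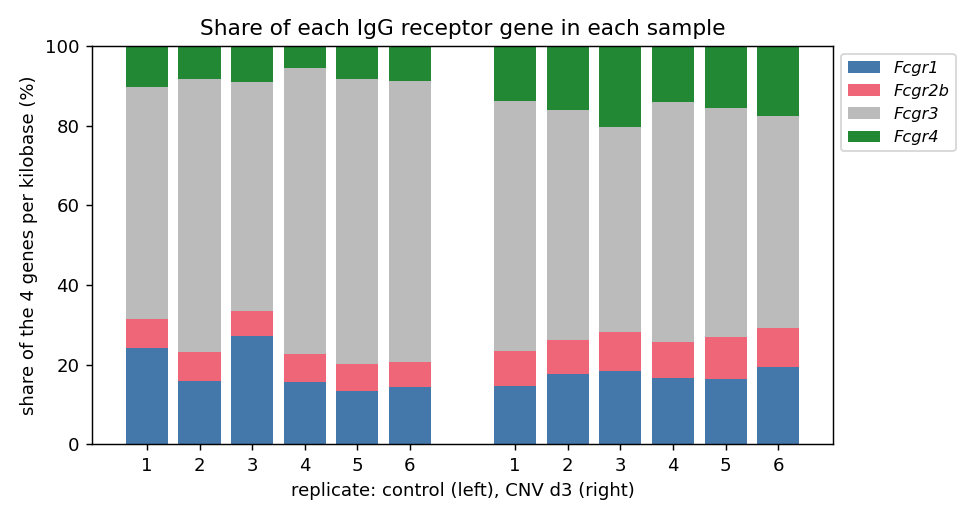
Share of each IgG receptor gene in the sum of the 4 genes, in percent of normalized counts per kilobase of merged exons, stacked for each of the 6 control samples (left) and the 6 CNV d3 samples (right). Fcgr4 (green, top) takes 5.65 to 10.4% in control and 13.7 to 20.5% in CNV d3, and Fcgr1 (blue, bottom) is widest in control replicates 1 and 3.

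The neighbours of the chromosome 1 receptor genes were examined after the values were seen. Between *Fcgr2b* and *Fcgr3*, *Fcgr4* is the only gene with a mean above 5 normalized counts in either group. Between *Fcgr3* and *Fcer1g* lies *Sdhc*, a gene of the mitochondrial respiratory chain, with means of 1520.0 and 1774 normalized counts (log2FC 0.23, adjusted p = 0.3103, limma). *Cfap126* and *Apoa2*, which lie in the same stretch, passed the test at low values, with means of 4.36 and 29.4 and of 0 and 5.13 normalized counts.

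By the rule for likeness, the genes whose centred log2 profiles over the 12 samples had the smallest root mean square difference from each Fc receptor gene were named, among 9712 genes with a mean of at least 100. For *Fcgr4* they were *Ak1* (0.12), *Cyb5r3* (0.17) and *Eif4g1* (0.19). For *Fcgr2b* they were *Oxct1* (0.09), the lysosomal protease gene *Ctsb* (0.11) and *Sdhd* (0.12), and for *Syk* the chaperone genes *Canx* (0.09) and *Hsp90ab1* (0.11) with *Dglucy* (0.11) between them. The closest profiles were *Mcoln1* (0.12) for *Fcgr1*, *Otulinl* (0.10) for *Fcgr3*, *Ndufs7* (0.09) for *Fcer1g* and *Sgta* (0.07) for *Fcgrt*. All these profiles share the same 12 libraries and their depth.

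Around the Fc receptor genes, 93 further genes of the pathway were listed in 8 groups, and 81 of them had values. Of these 16 increased (19.8%) and 9 decreased (11.1%), beside 8.29% and 4.57% of all genes and 22.0% and 15.1% of those with a mean of at least 1000, and their median log2FC was 0.19. No member of the 7 other immunoglobulin receptors and Fc receptor-like genes passed the test. *Fcrls*, the Fc receptor-like gene that marks mouse microglia, had means of 26701 ± 2506 and 22739 ± 8465 normalized counts (SD, n = 6 each, adjusted p = 0.4008, limma). Antibody chains themselves were low apart from *Ighm*, with 12220.0 and 11538 normalized counts (adjusted p = 0.5423, limma), and *Ighg1*, *Igha*, *Ighe* and *Jchain* were at 0 in all control samples.

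Of 7 Src family kinases, which phosphorylate the gamma chain, 1 increased and 1 decreased. In edgeR, in DESeq2 and with the filter of 10 normalized counts in 6 samples, 2 increased. Over all genes, 7.15% increased in edgeR, 14.5% of those tested in DESeq2 and 2160 of 12753 with that filter. *Lyn*, the kinase with the highest counts, fell from 24788 ± 1854 to 20564 ± 280 normalized counts (SD, n = 6 each), with a log2FC of -0.27 and an adjusted p of 0.008016 (limma). *Fyn* rose from 508 to 879 normalized counts (log2FC 0.87, adjusted p = 0.0269, limma). *Fgr* did not pass the test, with a log2FC of 0.74. Of 10 receptors and adaptors that signal through *Fcer1g* or *Syk*, 1 increased and 2 decreased. *Trem2*, the lipid receptor of microglia, fell from 10109 to 6051.5 normalized counts (log2FC -0.76, adjusted p = 0.0007411, limma), and *Clec5a* fell from 5717 to 3626 (log2FC -0.65, adjusted p = 0.005807, limma). *Tyrobp*, the adaptor of *Trem2*, had a log2FC of -0.20 and *Clec7a*, the beta-glucan receptor, one of 0.22, and neither passed the test. *Clec4d*, a lectin that pairs with the gamma chain, was a DEG at low counts, with means of 1.99 and 24.99 normalized counts, but no gene of this list increased in edgeR or with a filter of 10 normalized counts in 6 samples.

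Of 24 signalling genes downstream of *Syk*, 6 increased and 2 decreased. These counts moved with the settings, to 9 increased and 4 decreased with a filter of 10 normalized counts in 6 samples, and to 5 decreased in DESeq2. The calls over all genes moved too, to 2160 increased and 1544 decreased of 12753 genes under that filter. In DESeq2, 12.6% of the 17186 genes tested decreased. *Pik3ap1*, an adaptor of phosphoinositide 3-kinase, rose from 11519 to 16147 normalized counts (log2FC 0.49, adjusted p = 0.002991, limma), and *Vav1*, an exchange factor for Rac, rose by a log2FC of 0.24 (adjusted p = 0.02418, limma). *Pik3cg*, a catalytic subunit of that kinase, fell from 12196 to 8309 normalized counts (log2FC -0.56, adjusted p = 0.002208, limma). *Pik3r1*, a regulatory subunit chosen after its value was seen, fell as well (log2FC -0.46, adjusted p = 0.02292, limma). *Vav2*, also chosen after its value was seen, rose from 1829 to 3787 normalized counts (log2FC 1.07, adjusted p = 0.000212, limma). Of 12 inhibitors of Fc receptor signalling, 2 increased and 3 decreased, and 1 increased in edgeR. *Inpp5d*, which encodes SHIP1, the phosphatase that the *Fcgr2b* product recruits, had means of 20112 ± 867 and 18945 ± 1410 normalized counts (SD, n = 6 each, log2FC -0.09, adjusted p = 0.4352, limma). *Ptpn6*, the phosphatase SHP-1, had a log2FC of -0.09 (adjusted p = 0.454, limma). *Pag1*, an adaptor that holds the Src kinase inhibitor Csk at the membrane, fell from 10131 to 4992 normalized counts (log2FC -1.01, adjusted p = 0.0001228, limma), and *Ubash3b*, a phosphatase that acts on Syk, fell from 4896 to 3366 (log2FC -0.54, adjusted p = 0.001076, limma). *Dok1* and *Ptpn11*, chosen after their values were seen, had log2FC of -0.49 and 0.72 (adjusted p = 0.04083 and 0.02033, limma). *Dok2* was a DEG, with means of 18.04 and 93.6 normalized counts.

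Of 14 genes of the actin machinery of the phagocytic cup, the last step of uptake through activating receptors, 6 increased and 1 decreased. In DESeq2 3 decreased, and with the filter of 10 normalized counts in 6 samples 2 decreased. Over all genes, 12.6% of those tested decreased in DESeq2 and 1544 of 12753 with that filter. *Arpc2*, a subunit of the Arp2/3 complex that branches actin filaments, rose from 11196 to 15328 normalized counts (log2FC 0.45, adjusted p = 0.001099, limma), and *Rac1* rose from 13988 to 16539 (log2FC 0.24, adjusted p = 0.03803, limma). *Cdc42* and *Nckap1l* did not pass the test, with log2FC of 0.19 and 0.16. Chosen after their values were seen, *Rac2* had a log2FC of 0.94 and *Elmo1*, an activator of Rac, one of -0.93, with adjusted p of 3.708e-05 and 8.12e-06 (limma).

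**Figure D5:**
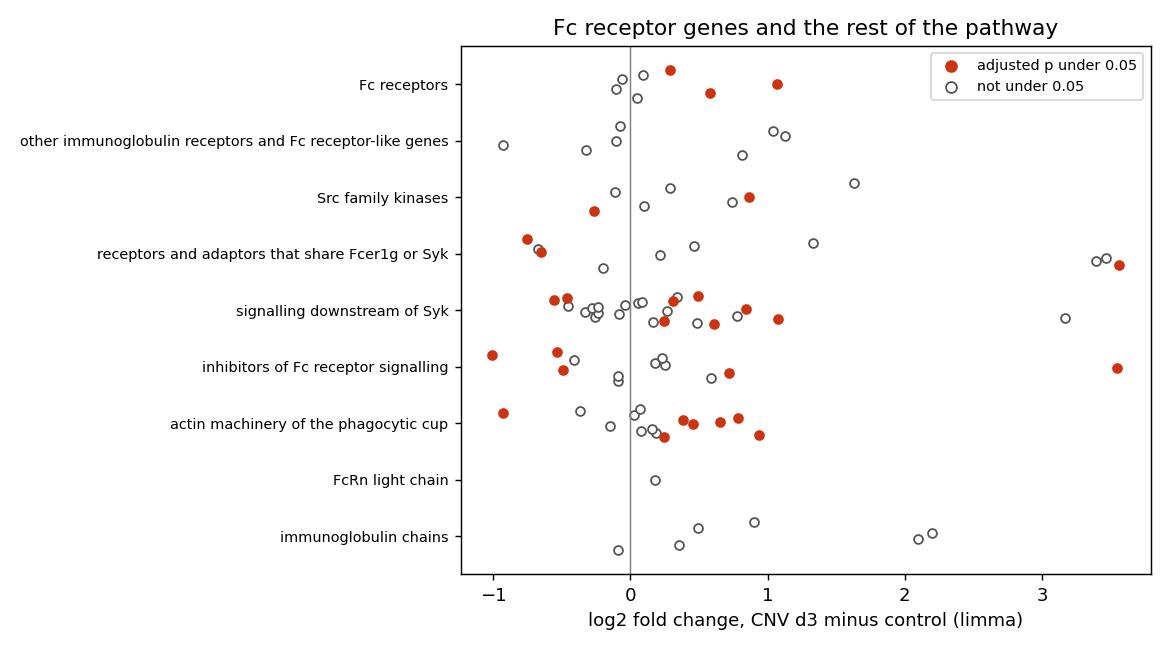
Log2 fold change of every measured gene of the pathway lists, CNV d3 minus control from limma, 1 row of points for each list with the 7 Fc receptor genes on top; filled red points have an adjusted p under 0.05 and open points do not. Points of both directions pass the test among Src kinases, receptors and adaptors, signalling genes, inhibitors and actin genes. Of the 7 Fc receptor genes, 3 pass on the right of 0 and none on the left.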

How the data were processed

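Per the labels and methods, total RNA of the sorted cells was turned into cDNA by template switching and PCR (SMARTer v4), fragmented with Nextera XT and sequenced as single reads of 50 cycles. The authors mapped reads with STAR 2.7.2b to the mouse genome (GRCm38.p6, Gencode M25), counted them with featureCounts 1.6.4 at default parameters, which ignore strand and leave out reads that map to several places or overlap several genes, and dropped genes without a read. The deposited signal values are read counts over a size factor for each sample from DESeq2 1.22.2 (R 3.5.3). The deposited table also holds group means, a log2 fold change and an adjusted p-value of the authors, which were not used.

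Values were whole multiples of the value of 1 read for 100% of genes in each of the 12 samples (tolerance 0.01 reads), so reads were recovered. A floor of 3 reads corresponds to 2.22 to 5.96 normalized counts, and covers counting error only, since PCR copies of reads could not be told apart. The main test was limma 3.58.1 (R 4.3.3) on log2(normalized counts + 1) with a variance trend, over all 27299 genes without a filter, with Benjamini-Hochberg adjustment. A fold change on this scale understates that of low genes. A DEG had an adjusted p under 0.05 and an absolute log2FC above 1.5. Two-sided exact permutation tests were used for single values and ratios. Alternatives were edgeR 4.0.16, DESeq2 1.42.0 and voom on the recovered reads, TMM and total scaling, pseudocounts of 0.5 and 10, a filter of 10 normalized counts in 6 samples, no trend, a replicate block, and each sample left out. The tests were checked on simulated data of 27299 genes, with 100 genes changed by a log2FC of 1 and 100 by 3. The changed genes were drawn only from those with a mean of at least 100 normalized counts. Recovery among lower genes was not checked. Of the changed genes limma recovered 46 and 96, edgeR 63 and 97, and DESeq2 77 and 99, with 12, 12 and 77 false calls.

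The Fc receptor genes, the pathway and marker lists and the tests were chosen with earlier results of these data known. Named were the 7 genes, up to 4 genes of highest mean and every DEG of a pathway list, and for each Fc receptor gene up to 3 genes of most similar profile. Any other gene was picked with its values in view. Positions came from Gencode M21. Protein sequences were not used here. Results for some genes are not reported here.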

Additional observations from a re-analysis of the deposited data

Results flagged for a closer look

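Among 20 sets of 6 values of single genes and receptor ratios examined for a sample far from the others, 1 stood out. *Fcer1g* in control replicate 3 had 36399 normalized counts. On the log2 scale, its gap to the next control sample took 0.6525 of the range of the group. This was above the 95% critical value of Dixon's test for 6 samples. Chance gives about 1 such set in 20. The same sample was the highest control sample for 5 of the 7 Fc receptor genes, and had the highest sums of border macrophage markers (1726 normalized counts) and of photoreceptor markers (5954) in control.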

How the results depend on the processing

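The calls of *Fcgr4* and *Fcgr2b* were kept in all 22 alternatives, with log2FC of 0.96 to 1.12 and 0.54 to 0.62, and *Fcgr1*, *Fcgr3*, *Fcer1g* and *Fcgrt* passed in none. The number of increased Fc receptor genes was 2 or 3 and that of decreased ones 0 in all of them, also with each sample left out. The call of *Syk* was lost in 10 alternatives, among them a pseudocount of 0.5 (adjusted p = 0.05023), limma without a trend (0.1679) and the replicate block (0.1031), and the cause was not tested. The 3 receptor ratios kept direction and threshold in 14 alternatives each, with ranges of -0.61 to -0.39 for *Fcgr1*, -0.75 to -0.64 for *Fcgr3* and 0.36 to 0.53 for *Fcgr4*.

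Both groups carry replicate numbers 1 to 6, and the labels name no pairing. Deviations of samples with the same number correlated between -0.15 and 0.13. These correlations were not tested and cannot tell whether equal numbers mark pairs. With the replicate block, 10 pathway genes increased in place of 16, beside 1885 in place of 2264 of all genes. Among these pathway genes were 3 signalling genes downstream of *Syk* in place of 6 and 1 inhibitor in place of 2. Each receptor ratio had an exact paired p of 0.0312, the smallest possible for 6 pairs. DESeq2 called 14 pathway genes decreased in place of 9, and 2170 decreased genes of 17186 tested in place of 1247. With 12 samples, 95% intervals of the 4 uncalled genes reached at most 0.37 on the log2 scale.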
